A study of Mus musculus with 12 samples.

Results

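The clustered protocadherins are a family of cadherin-like cell-surface proteins encoded by 3 neighbouring gene arrays, alpha, beta and gamma, on mouse chromosome 18. All protein-coding genes of the annotation whose symbol starts with Pcdha, Pcdhb or Pcdhg were taken. For the mm9 build it held 24 such entries among 22342 protein-coding genes, and merged most alpha exons under Pcdha11 (ENSMUSG00000007440.7) and the gamma exons under Pcdhgc5 (ENSMUSG00000023036.7). The 24 entries carried 40 annotated first-exon starts: 8 alpha, 21 beta, 5 gamma A, 1 gamma B (Pcdhgb6) and the 5 C-type starts Pcdhac1, Pcdhac2, Pcdhgc3, Pcdhgc4 and Pcdhgc5. All lie on the plus strand of chr18:37089939-38001527 (mm9), a span of 912 kb, and no pair of starts was closer than 4.22 kb.

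Each alpha and gamma variable exon has its own promoter and is spliced to a set of constant exons shared by its array, whereas each beta gene is a single coding exon. The proteins bind the same isoform on a neighbouring cell, and in neurons the stochastic choice of promoters, which involves CTCF and cohesin, gives individual cells different combinations. The C-type isoforms are known to be less subject to that choice, and enhancers for the cluster lie within the alpha array and downstream of the gamma array.

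The marks were measured by ChIP-seq in C2C12, an established myoblast line from the C3H mouse strain, at passages 15 to 18. One group was near-confluent myoblasts in 10% serum. The other was myotubes, fused muscle cells collected about 5 days after the serum was withdrawn and freed of unfused cells by a brief trypsin treatment. Each of 6 antibodies was used in both groups: H3K4me3 (a mark of promoters), H3K4me2 (promoters and enhancers), H3K4me1 (enhancers), H3K27ac (active promoters and enhancers), H3K27me3 (Polycomb repression) and H3K36me3 (bodies of transcribed genes). Libraries of about 250 bp fragments were amplified for 15 cycles of PCR, without molecular identifiers. There was 1 library for each mark and group, with no input library among the 12, so a ratio between groups compares 1 library with 1 library and no test of the conditions was possible.

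The libraries held 1858771 to 7033100 aligned reads of 34 bases. The muscle genes matched the labels: at the start of Myod1, the myoblast determination factor, H3K4me3 was 14.8-fold and 16.3-fold the library mean in myoblasts and myotubes. Myog, the differentiation factor, had 7 and 27 H3K4me3 reads, and Ckm, muscle creatine kinase, had 0 and 26. All 8 measured myotube markers were above the mean for H3K4me3 in myotubes and 2 in myoblasts. The neuronal genes Snap25 and Syt1 had 1 and 2 H3K4me3 reads in myoblasts and 0 and 1 in myotubes, although 3 of 7 measured neuron markers, Nefl and Tubb3 among them, were above the mean in each. Of all genes other than the clustered protocadherins, 51.3% were above the H3K4me3 mean in myoblasts and 50.1% in myotubes. In the pooled cells of a library, a mark carried by few cells and a weak mark on every cell cannot be told apart.

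At each start, the reads in 1000 bp centred on it were expressed as a fold of the mean over chromosomes 1 to 19 and X of that library, with an exact 95% Poisson interval that covers counting error only. An average 1000 bp window held 0.727 reads (H3K27ac, myoblasts) to 2.75 reads (H3K36me3, myoblasts), so a start counted as above the mean needed 4 to 7 reads. For a start with 0 reads the limit is given as 3 reads, the one-sided 95% limit of a count of 0, which is 1.09-fold to 4.13-fold depending on the library. Of the 480 values (40 starts in 12 libraries), 196 were 0 reads and 37 lay above the library mean by their interval.

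Most protocadherin starts carried little of any mark in either cell type. Of the 40 starts, 27 lay above the mean in no library: all 8 alpha, all 5 gamma A, Pcdhgb6, 12 of 21 beta starts and Pcdhac1. The other 13 were 4 C-type starts and 9 beta starts, of which Pcdhgc3 was above the mean in 7 of 12 libraries, Pcdhgc5 in 6, Pcdhb16 in 5 and Pcdhgc4 in 4. The heat map of the 40 starts shows these as the few bright columns. No such count over the 12 libraries was made for other genes. Their share above the mean is given below for each library.

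**Figure D1:**
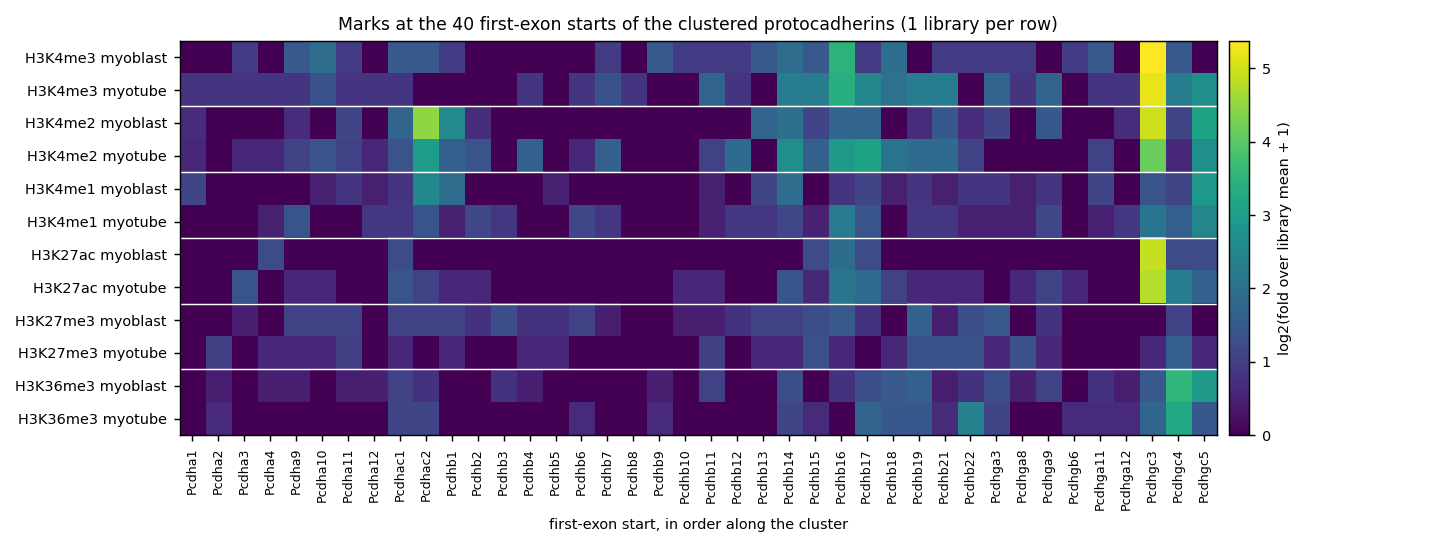
Heat map of the 6 marks at the 40 starts, in order along the cluster (columns), in myoblasts and myotubes (rows, 1 library each). The colour is log2 of the fold over the library mean plus 1, and Pcdhgc3 is the brightest column for H3K4me3, H3K4me2 and H3K27ac, while the alpha and gamma A columns stay dark.

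For H3K4me3, 2 starts in myoblasts (Pcdhb16 and Pcdhgc3) and 9 in myotubes lay above the mean, against 51.3% and 50.1% of the 22318 other protein-coding genes. The median start was 0.922-fold in myoblasts and 0.776-fold in myotubes, against 3.69-fold and 3.88-fold over the other genes. For H3K4me2, 4 and 7 starts lay above the mean against 58.6% and 55.8% of other genes, with medians of 0.596-fold and 1.08-fold against 12.5-fold and 6.99-fold. In both promoter-associated marks the share of protocadherin starts above the mean was therefore well under that of genes at large.

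For H3K4me1, 4 starts in myoblasts and 3 in myotubes were above the mean (37.2% and 34% of other genes). For H3K27ac, Pcdhgc3 alone was above the mean in myoblasts and Pcdhb16, Pcdhgc3 and Pcdhgc4 in myotubes (47.8% and 47.9% of other genes). In these libraries 32 and 17 starts had 0 reads, where 78.2% and 58.4% of 1 kb bins of the genome had 0. The H3K27ac myoblast library was the shallowest, so its zeros limit the level least.

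The Polycomb mark H3K27me3 was low at the starts as well. None of the 40 starts was above the mean in either H3K27me3 library, against 14.4% of other genes in myoblasts and 7.73% in myotubes. The highest was Pcdhb19 in myoblasts with 6 reads, 2.19-fold (0.803 to 4.76), and Pcdhgc4 in myotubes with 4 reads, 2.04-fold (0.556 to 5.22). Summed over the 35 starts that are not C-type, H3K27me3 was 0.687-fold (0.532 to 0.875) in myoblasts and 0.481-fold (0.331 to 0.675) in myotubes. H3K36me3 at the starts was above the mean at Pcdhgc4 and Pcdhgc5 in myoblasts and at Pcdhb22 and Pcdhgc4 in myotubes, against 11.4% and 6.87% of other genes.

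These paralogs are similar in sequence and only unique alignments were kept, so the share of 34-base positions that occur once in the genome was computed. It was 73.5% to 87.5% in the alpha windows, 84.9% to 100% in the beta windows and 100% at the 5 C-type starts, against 84.4% of the genome. Scaling each window by its share left all 12 medians within their intervals.

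The highest values of H3K4me3, H3K4me2, H3K4me1, H3K27ac and H3K36me3 were at C-type starts in both cell types, and the 5 C-type starts differed from each other in which mark they carried. Pcdhgc3, the first C-type exon of the gamma array (start at 37966064), had the profile of an active promoter. It had 44 H3K4me3 reads in myoblasts, 40.6-fold (29.5 to 54.5), and 46 in myotubes, 35.7-fold (26.1 to 47.6). Its H3K27ac was 28.9-fold (21 reads) and 26.5-fold (49 reads), and its H3K4me2 was 30.4-fold (51 reads) and 16.7-fold (31 reads). H3K4me1 was 1.58-fold (4 reads) and 3.26-fold (8 reads), while H3K27me3 had 0 reads and 1 read. Its H3K36me3 was 1.82-fold and 2.37-fold, with both intervals including the mean.

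Pcdhac2, the last variable exon of the alpha array (start at 37303623), carried H3K4me2 and H3K4me1 without H3K4me3 or H3K27ac above the mean. Its H3K4me2 was 21.5-fold (36 reads) in myoblasts and 6.99-fold (13 reads) in myotubes, and its H3K4me1 was 4.74-fold (12 reads) and 1.63-fold (4 reads). It had 2 and 0 H3K4me3 reads and 0 and 2 H3K27ac reads in myoblasts and myotubes. H3K27me3 was 3 reads and 0 reads. Its window was the richest in G and C of the 40 starts, at 67.3%.

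Pcdhac1, the other alpha C-type exon, had no value above the mean in 12 libraries. Its highest was H3K4me2 in myoblasts, 2.38-fold (0.649 to 6.1) on 4 reads.

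Pcdhgc5 (start at 37979200) carried H3K4me2 at 7.75-fold (13 reads) and 5.38-fold (10 reads), and H3K4me1 at 6.32-fold (16 reads) and 4.49-fold (11 reads). Its H3K4me3 was 0 reads in myoblasts and 7 reads, 5.43-fold (2.18 to 11.2), in myotubes. Its H3K36me3 was 6.55-fold (18 reads) in myoblasts and 1.78-fold (3 reads) in myotubes.

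Pcdhgc4 (start at 37974733) lies between them, and its leading mark was H3K36me3, at 10.5-fold (29 reads) and 8.3-fold (14 reads). H3K4me3 there was 2 reads in myoblasts and 5 reads, 3.88-fold (1.26 to 9.05), in myotubes. H3K27ac was 1 read and 7 reads, the latter 3.79-fold (1.52 to 7.81). Both starts lie downstream of Pcdhgc3, within the intron that joins it to the constant exons, so the reads there cannot be assigned to one transcript.

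**Figure D2:**
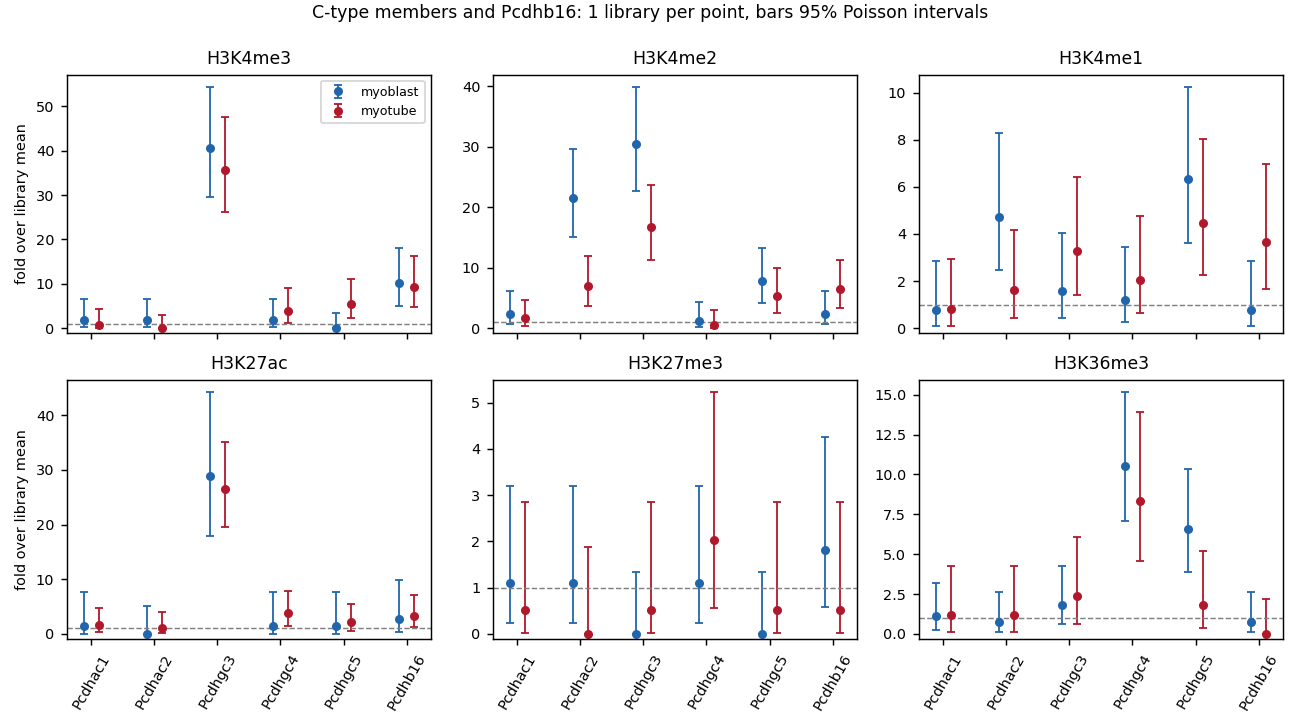
Fold over the library mean (y axis) at the 5 C-type starts and Pcdhb16 (x axis), 1 panel per mark, with blue points for myoblasts, red points for myotubes, 95% Poisson intervals as bars and a dashed line at the library mean. Pcdhgc3 stands highest for H3K4me3 and H3K27ac in both cell types, Pcdhac2 is high for H3K4me2, and Pcdhgc4 and Pcdhgc5 for H3K36me3 in myoblasts.

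Among the annotated starts, signal outside the C-type exons was seen at beta genes, and in myotubes it lay mostly in the last part of the array. In myoblasts the only beta starts above the mean for any mark were Pcdhb14, Pcdhb16 and, at the other end of the array, Pcdhb1. Pcdhb16 (start at 37637422) was the one member besides Pcdhgc3 with a deposited H3K4me3 peak in both cell types, 1135 bp and 1061 bp long against 4912 bp and 5292 bp at Pcdhgc3. It had 11 H3K4me3 reads in myoblasts, 10.1-fold (5.06 to 18.2), and 12 in myotubes, 9.31-fold (4.81 to 16.3). Its H3K4me2 was 2.38-fold (4 reads) and 6.45-fold (12 reads), and its H3K4me1 was 2 reads and 9 reads. H3K27ac was 2 reads in myoblasts and 6 reads, 3.25-fold (1.19 to 7.07), in myotubes.

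In myotubes the starts above the mean for H3K4me3 also included Pcdhb14, Pcdhb15, Pcdhb19 and Pcdhb21 with 5 reads each and Pcdhb17 with 6. In myoblasts these had 3, 2, 0, 1 and 1 reads. Calls on so few reads depended on the setting: the 9 starts above the mean in myotubes became 2 against the mean of the 200 kb on either side of the cluster and 5 with 300 bp windows. For H3K4me2, Pcdhb17 had 4 reads in myoblasts and 14 in myotubes, Pcdhb14 had 5 and 10, and Pcdhb18 had 0 and 6. Upstream of Pcdhb14 the only beta start above the mean in any library was Pcdhb1, in myoblasts, with H3K4me2 at 4.77-fold (8 reads) and H3K4me1 at 2.76-fold (7 reads). The lowest member was Pcdhb8, with 1 read in all 12 libraries together.

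After these values were seen, the array was divided at Pcdhb14 as a description with no test. Over the 13 starts from Pcdhb1 to Pcdhb13, H3K4me3 was 0.639-fold (0.292 to 1.21) in myoblasts and 0.537-fold (0.246 to 1.02) in myotubes. Over the 8 starts from Pcdhb14 to Pcdhb22 it was 2.54-fold (1.59 to 3.84) and 4.07-fold (2.94 to 5.51). In myoblasts Pcdhb16 held 11 of the 22 reads of these 8 starts and was the only 1 above the mean. H3K4me2 was 0.596-fold and 0.952-fold over the first set, and 1.49-fold (0.91 to 2.3) and 3.9-fold (2.96 to 5.04) over the second. The other marks were higher over the second set as well, so the contrast was not particular to promoter marks. H3K27me3 was 0.673-fold and 0.235-fold over the first set and 1.14-fold and 0.956-fold over the second. H3K36me3 was 0.196-fold and 0.0912-fold, then 1.09-fold and 1.56-fold. H3K4me1 was 0.365-fold and 0.502-fold, then 0.889-fold and 1.12-fold. H3K27ac was 0-fold and 0.167-fold, then 0.688-fold and 1.35-fold. All 8 windows of the second set are fully unique, whereas those of the first are 84.9% to 100% unique.

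The H3K36me3 bins of the beta array lay at the same end in myotubes. Counting 1 kb bins over 3-fold with at least 5 reads, 9 bins of the beta genes passed in myotubes, between Pcdhb16 and Pcdhb22, and 0 in myoblasts. The library mean was 1.69 reads per kb in myotubes and 2.75 in myoblasts, so a bin needed fewer reads to pass in myotubes. In the genome 7.42% and 8.1% of bins passed in myotubes and myoblasts, so the share in these 256 kb was under that of the genome in both. The highest of the 9 was at 2.03 kb from the start codon of Pcdhb21, with 11 reads, 6.52-fold (3.26 to 11.7). Just past the end of the beta genes, the bin 3.37 kb from the start codon of Pcdhb22 had 19 reads, 11.3-fold (6.78 to 17.6). Summed over all 256 kb of beta genes, H3K36me3 stayed under the library mean, at 0.299-fold in myoblasts and 0.428-fold in myotubes. The ratio of these sums was 1.43 (1.17 to 1.75).

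The annotated alpha and gamma A and B starts were close to or under the mean for every mark. They cover 5 of 12 gamma A and 1 of 7 gamma B first exons. Pcdhga1 and Pcdhgb1, which lack an annotated start, had H3K4me3 above the mean in myotubes and are described further below. Over the 8 alpha starts H3K4me3 was 0.807-fold (0.324 to 1.66) in myoblasts and 0.873-fold (0.399 to 1.66) in myotubes, with at most 3 reads at any start, reached at Pcdha10 in myoblasts. H3K4me2 there was 0.298-fold (0.0812 to 0.763) on 4 reads and 0.74-fold (0.369 to 1.32) on 11 reads, and H3K27me3 0.456-fold (0.219 to 0.838) and 0.446-fold (0.179 to 0.92). These windows are the least unique ones, as given above. Over the 5 gamma A starts H3K4me3 was 4 reads, 0.738-fold (0.201 to 1.89), and 9 reads, 1.4-fold (0.639 to 2.65), spread over all 5 starts in myotubes. Pcdhgb6 had 1 read in all 6 myoblast libraries together and 2 in all 6 myotube libraries.

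Over the 107 kb of gamma A and B exons, H3K36me3 was 0.532-fold (156 reads) in myoblasts and 0.957-fold (172 reads) in myotubes, a ratio of 1.8 (1.44 to 2.25). In myotubes 5 bins over 3-fold lay there, near Pcdhga4, Pcdhgb2, Pcdhgb6, Pcdhgb8 and Pcdhga12, and in myoblasts 0, again a smaller share than the 7.42% and 8.1% of bins in the genome. As in the beta array, a bin needed fewer reads to pass in myotubes. Over the other genes the H3K36me3 ratio of summed reads at the starts was 1.06.

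Across the whole span, every mark was under its library mean, from 0.54-fold (H3K4me1) to 0.727-fold (H3K4me3) in myoblasts and from 0.453-fold (H3K4me1) to 0.82-fold (H3K4me3) in myotubes. The 200 kb on either side were higher for most marks: H3K36me3 in myoblasts was 0.587-fold in the cluster, 1.7-fold before it and 3.04-fold after it. Of the whole cluster, 80.3% of positions were unique.

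The reads inside the cluster were concentrated at its gamma end. The 35.5 kb from the start of Pcdhgc3 to the last gamma constant exon are 3.89% of the cluster, a stretch chosen after the profile was seen. They held 66.2% (exact binomial 95% interval 61.3 to 70.8) of the cluster's H3K27ac reads in myoblasts and 51.3% (47.9 to 54.7) in myotubes. For H3K36me3 the shares were 54.4% (51.8 to 57) and 39.3% (36.2 to 42.5), and for H3K4me1 55.6% (52.8 to 58.4) and 40.9% (37.8 to 44). For H3K4me2 they were 57% (54 to 60) and 37.9% (35 to 40.7). H3K4me3 was less concentrated, with 32.7% (29.3 to 36.2) and 29.5% (26.6 to 32.4), so most of its reads lay elsewhere in the cluster. H3K27me3 was not concentrated there, with 4.57% (3.55 to 5.79) and 5.33% (4.02 to 6.91) of its reads.

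Over the other 876 kb every mark was under its library mean. H3K27ac was 0.215-fold and 0.264-fold there in myoblasts and myotubes, H3K4me1 0.25-fold and 0.279-fold, and H3K36me3 0.279-fold and 0.385-fold. H3K4me2 was 0.314-fold and 0.438-fold. H3K4me3 was 0.51-fold and 0.602-fold, close to the 0.564-fold and 0.548-fold of H3K27me3.

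**Figure D3:**
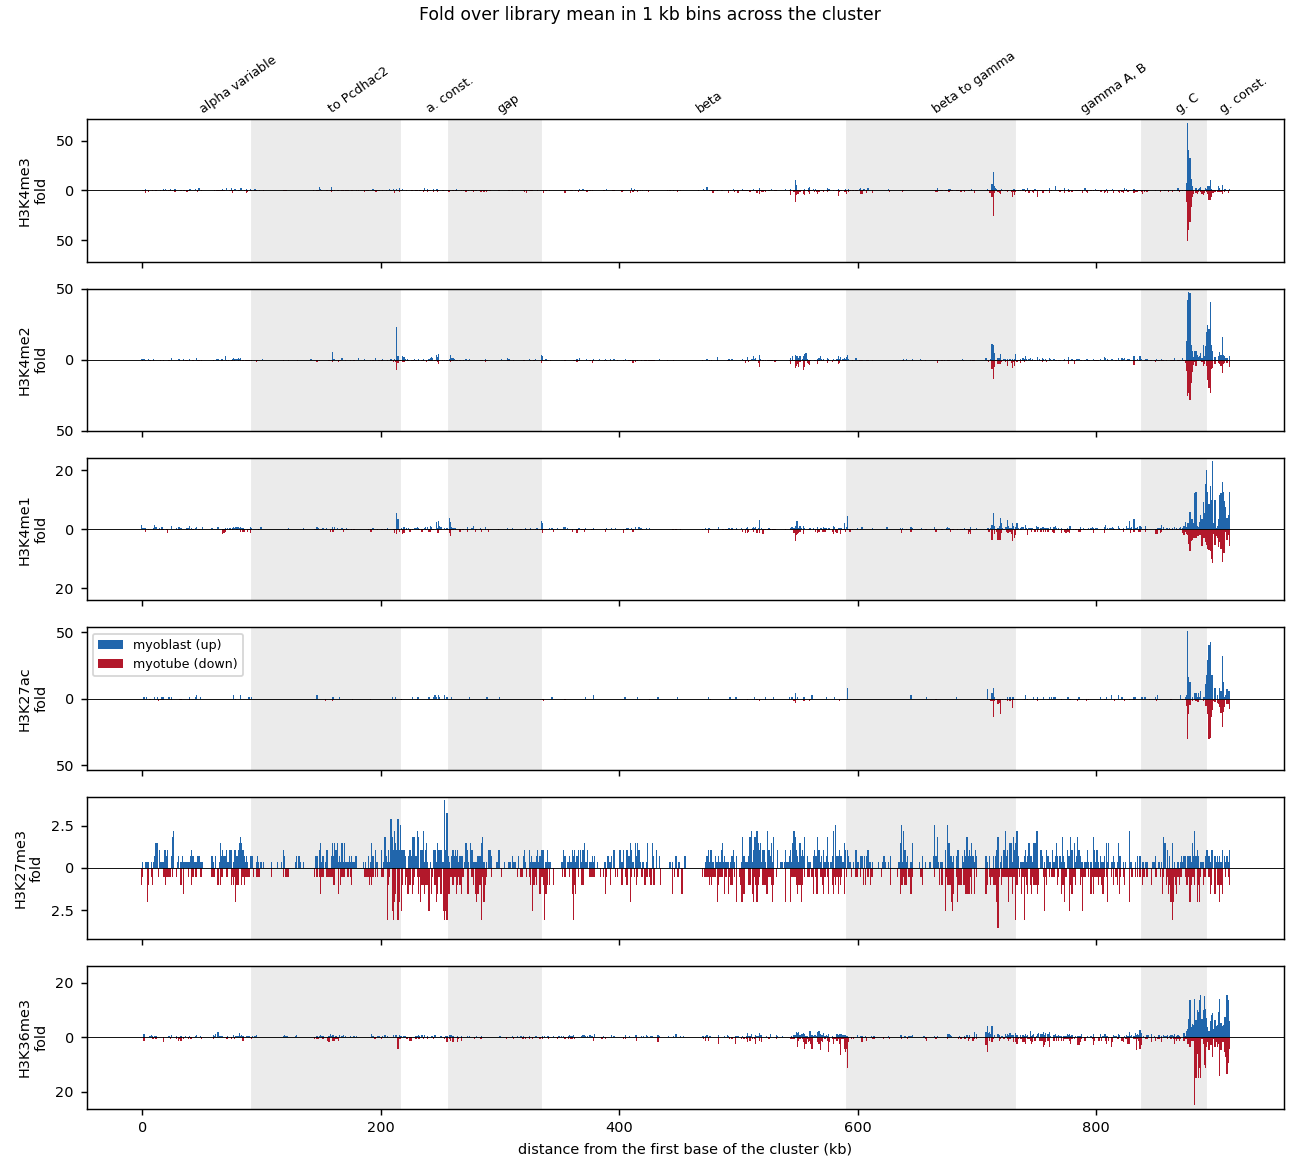
Fold over the library mean (y axis, scaled to each mark) in 1 kb bins against the distance from the first base of the cluster in kb (x axis), with myoblasts drawn up in blue and myotubes down in red. Alternating shading marks the blocks named above the top panel (a. const., alpha constant exons; g. C, gamma C exons; g. const., gamma constant exons), and the tallest bars of every mark but H3K27me3 lie in the last 2 blocks.

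Within that end, the marks followed the order of the exons. The highest H3K4me3 bin, 0.298 kb past the start codon of Pcdhgc3, was 68.3-fold (74 reads) in myoblasts and 50.4-fold (65 reads) in myotubes, and over the first 5 kb of Pcdhgc3 H3K4me3 averaged 31.2-fold and 28.9-fold. Averaged over the 37.9 kb before that start, no mark exceeded 0.84-fold in any library. H3K36me3 over the same first 5 kb was 6.47-fold (89 reads) in myoblasts and 2.02-fold (17 reads) in myotubes, a ratio of 0.311 (0.174 to 0.527). Its highest bins were 15.6-fold in myoblasts, 1 at -1.83 kb from the start codon of Pcdhgc5 and 1 near the end of the constant exons, 20.2 kb past it, and 24.9-fold (42 reads) in myotubes, at -2.69 kb from the start codon of Pcdhgc4.

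The block of the gamma constant exons and their introns carried enhancer-type marks as well, beside some H3K4me3. These exons are shared by all gamma transcripts. Over their 19.6 kb block H3K27ac was 13-fold (11.2 to 15) in myoblasts and 9.07-fold (8.11 to 10.1) in myotubes. H3K4me1 was 9.58-fold and 5.87-fold, H3K4me2 8.25-fold and 5.66-fold, and H3K36me3 7.24-fold and 4.94-fold. For H3K4me3, 5 bins in myoblasts and 4 in myotubes were over 3-fold with at least 5 reads. In the genome 1.92% and 3.09% of bins passed. A deposited H3K4me3 peak lay there in each cell type, 1247 bp and 1375 bp long. The bin with the most H3K4me1, 8.17 kb past the start codon of Pcdhgc5, was 22.9-fold (58 reads) in myoblasts and 11.4-fold (28 reads) in myotubes. Averaged over the alpha constant exons these marks were under the mean, although 2 H3K4me2 bins over 3-fold in myoblasts and 1 in myotubes lay there. H3K4me2 was 0.522-fold and 0.562-fold, H3K27ac 0.469-fold and 0.303-fold, H3K36me3 0.177-fold and 0.231-fold, and H3K27me3 1.09-fold (0.906 to 1.3) and 1.17-fold (0.942 to 1.43).

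**Figure D4:**
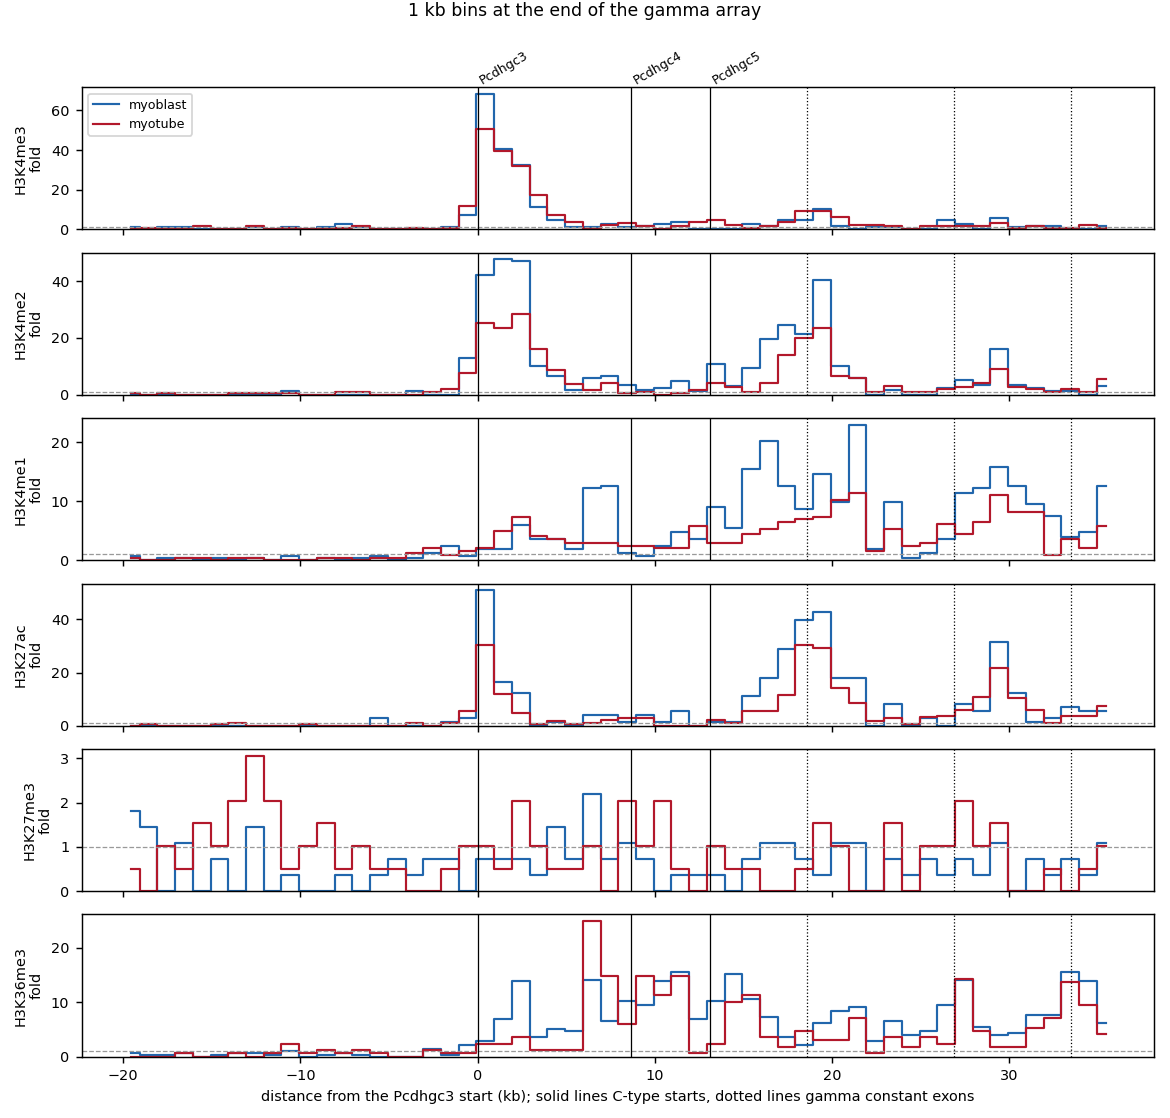
Fold over the library mean (y axis) in 1 kb bins around the end of the gamma array, against the distance from the Pcdhgc3 start in kb (x axis), in myoblasts (blue) and myotubes (red). Solid lines are the C-type starts and dotted lines the 3 gamma constant exons: H3K4me3 peaks at Pcdhgc3, while H3K4me1 and H3K27ac are high again around the constant exons.

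By bins over 3-fold with at least 5 reads, 17 of 913 bins (1.86%) passed for H3K4me3 in myoblasts and 27 (2.96%) in myotubes, against 1.92% and 3.09% of bins in the genome. For H3K4me2, H3K4me1, H3K27ac and H3K36me3, 18 to 38 bins passed in each library, against 4.32%, 7.45%, 2.52% and 8.1% of the genome in myoblasts and 5.76%, 8%, 4.78% and 7.42% in myotubes. The share of the cluster's bins was close to the genome's for H3K4me3 in both cell types and for H3K4me2 in myoblasts (38 bins, 4.16%). In the other libraries of these marks it was further under the genome's, for instance 2.96% against 8% for H3K4me1 in myotubes. For H3K27me3 2 and 12 bins passed, against 5.31% and 7.47% of the genome. Its library mean was 2.74 reads per kb in myoblasts and 1.96 in myotubes, so a bin needed fewer reads in myotubes. The 2 myoblast bins lie in the alpha constant block, with 11 reads (4.01-fold) and 9 reads (3.28-fold), and in myotubes the same 2 bins had 6 reads each. No alpha variable exon bin passed for any mark in either cell type.

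Genes of other families inside the cluster were measured in the same way. Taf7, a subunit of the general transcription factor TFIID that lies between the beta and gamma arrays, had 14 H3K4me3 reads (12.9-fold) in myoblasts and 26 (20.2-fold) in myotubes. Slc25a2, a mitochondrial ornithine carrier gene next to it, had 2 and 1 H3K4me3 reads, and its H3K36me3 was 4.73-fold and 4.74-fold. Gm10545 had 2 and 1 H3K4me3 reads and 3222401L13Rik 0 and 2. Of the nearest genes outside, Gm6756 had 0 and 0 H3K4me3 reads and Diap1, a formin, had 28 and 17 (25.8-fold and 13.2-fold).

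The MACS peaks deposited for each library gave a similar picture. For H3K4me3 a peak met the windows of Pcdhb16 and Pcdhgc3 in both cell types, 2 of 40 starts against 46.5% and 46.4% of other genes. For H3K4me2 the starts with a peak were Pcdhac2, Pcdhgc3 and Pcdhgc5 in myoblasts and these with Pcdhb14 and Pcdhb17 in myotubes (54% and 49.9% of other genes). For H3K4me1, Pcdhac2 and Pcdhgc5 had a peak in myoblasts and none of the 40 in myotubes (21.4% and 5.08%). For H3K36me3 they were Pcdhgc4 and Pcdhgc5 in myoblasts and Pcdhb22 and Pcdhgc4 in myotubes (1.71% and 2.21%).

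The myoblast H3K27ac and H3K27me3 peak lists went against their sample labels. In the list deposited with the H3K27ac myoblast sample, the H3K27ac reads were 0.588-fold and the H3K27me3 reads 6.76-fold, and in the one deposited with H3K27me3 they were 36.4-fold and 0.804-fold. As deposited, Pcdhgc3 had an H3K27me3 peak and no start had an H3K27ac peak in myoblasts (43.7% and 4.1% of other genes). With the lists exchanged, Pcdhgc3 had an H3K27ac peak and no start had an H3K27me3 peak. In myotubes, where the lists matched their reads, Pcdhgc3 had an H3K27ac peak (39.8% of other genes) and no start an H3K27me3 peak (0.717%).

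Between the cell types, few members had enough reads to compare. A ratio was called at 2-fold in either direction where both libraries together held at least 20 reads, which 9 pairs of a member and a mark reached. None was called higher in myotubes, and 2 were called lower. Pcdhac2 H3K4me2 had a ratio of 0.326 (0.159 to 0.629), where 44% of other genes with enough reads were also called lower and 2.1% higher. Pcdhgc5 H3K36me3 had a ratio of 0.272 (0.0513 to 0.931), where 9.88% were called lower and 14.8% higher. The lower and higher calls among other genes were 11.8% and 2.78% for H3K4me3, 33% and 6.7% for H3K4me1, and 42.7% and 5.27% for H3K27ac. For H3K27me3, where no member had 20 reads, they were 39.6% and 1.78%.

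The remaining 7 ratios were under 2-fold. For Pcdhgc3 they were 0.879 for H3K4me3, 0.918 for H3K27ac and 0.549 (0.339 to 0.874) for H3K4me2, a mark whose sum over all other genes was also lower in myotubes, at 0.523. Pcdhb16 H3K4me3 had a ratio of 0.918, Pcdhgc4 H3K36me3 0.787, and Pcdhgc5 0.694 for H3K4me2 and 0.71 for H3K4me1.

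Summed over the 21 beta starts, H3K4me2 was 33 reads in myoblasts and 81 in myotubes, a ratio of 2.22 (1.46 to 3.43). Over the 5 C-type starts it was 106 and 58 reads, a ratio of 0.494 (0.352 to 0.687). The ratios went in opposite directions, and which scale is right cannot be told from these libraries. Scaled by reads in 10 kb windows that met no H3K4me2 peak of either cell type, the ratios were 1.43 (0.94 to 2.21) and 0.318 (0.227 to 0.442). The interval of the beta ratio then included 1, and the C-type ratio was under 1 with either scaling. At the 22 beta reading frames the ratio was 1.62 (1.12 to 2.35). For the other 5 marks, the intervals of the beta and of the C-type sums all included 1. H3K27ac over the beta starts, for instance, had 4 and 24 reads, a ratio of 2.36 (0.811 to 9.36).

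**Figure D5:**
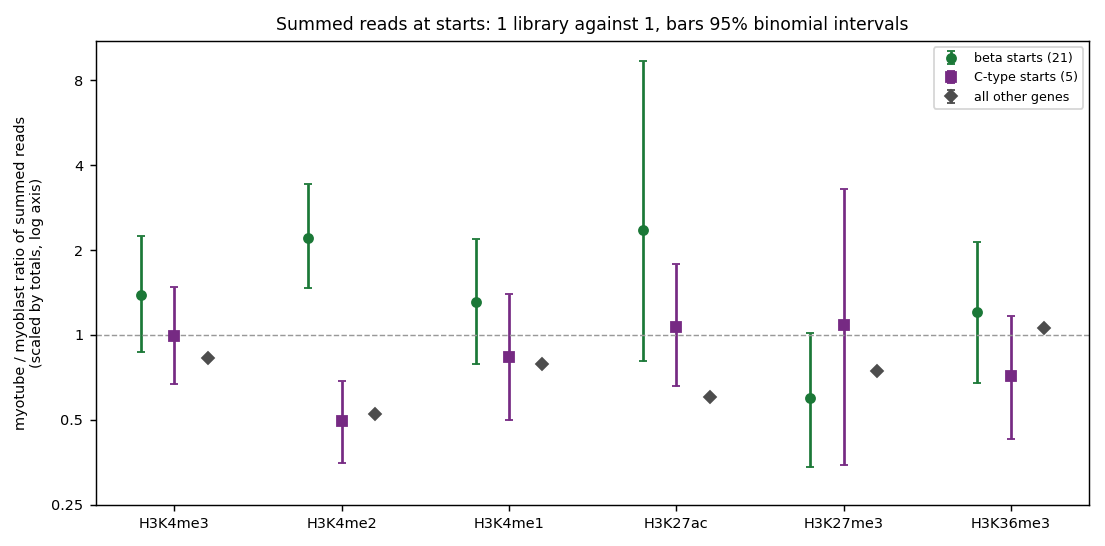
Myotube to myoblast ratio of summed reads scaled by library totals (y axis, log scale) for each mark (x axis), at the 21 beta starts (green), the 5 C-type starts (purple) and the 22318 other genes (grey, bars within the symbols), with exact conditional binomial 95% intervals for 1 library against 1. For H3K4me2 the beta starts are at 2.22, the C-type starts at 0.494 and the other genes at 0.523.

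Of 13 non-clustered protocadherin genes measured, 6 were above the mean for H3K4me3 in each cell type, against 51.3% and 50.1% of other genes. Their medians of 2.77-fold and 3.1-fold stood above those of the 40 clustered starts and under the 3.69-fold and 3.88-fold of other genes. Pcdh10 H3K4me3 was called higher in myotubes (8 and 24 reads, ratio 2.52), 1 of 4 with enough reads, against 2.78% of other genes with enough reads. For H3K4me2, 3 of 8 with enough reads were called lower (Pcdh1, Pcdh7 and Cdhr1, at 0.492, 0.382 and 0.379). For H3K4me1, 2 of 2 were called lower (Pcdh1 and Cdhr1, at 0.31 and 0.258), and for H3K27ac 1 of 2 (Pcdh1, at 0.492). Of other genes with enough reads, 44%, 33% and 42.7% were called lower for these marks. All 16 measured regulators of the cluster, among them Ctcf, the cohesin genes and the repressor Smchd1, were above the mean for H3K4me3 in myoblasts and 15 in myotubes, with medians of 21.7-fold and 14-fold. Ctcf had 18 and 17 H3K4me3 reads. Smchd1 and the DNA methyltransferase gene Dnmt3b were called lower, with H3K4me3 ratios of 0.439 and 0.436. That is 2 of the 15 with enough reads, against 11.8% of other genes with enough reads. None of the 16 regulators was called higher for any mark. For H3K4me2, 5 of 16 were called lower (Smchd1, Dnmt1, Dnmt3b, Wiz and Trim28, at 0.307 to 0.498), and for H3K27ac 5 of the 13 with enough reads (Wapal, Smchd1, Dnmt1, Wiz and Trim28, at 0.166 to 0.487). Both shares are under the 44% and 42.7% of other genes. All 10 measured partners of the protocadherin proteins, such as the kinases Ptk2b and Fyn and the protease Adam10, were above the mean for H3K4me3 in myoblasts and 9 in myotubes. Of the 9 partners with enough H3K4me3 reads, Ptk2b, Nckap1 and Adam10 were called lower, with ratios of 0.25, 0.498 and 0.484 (11.8% of other genes). None was called higher. For H3K4me2, 5 of 10 were called lower (Fyn, Ret, Wasf1, Cyfip2 and Nckap1), for H3K4me1 2 of 5 with enough reads (Ret and Axin1) and for H3K27ac 1 of 7 (Wasf1), against 44%, 33% and 42.7% of other genes.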

How the data were processed

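Per the labels and the study's methods, the authors aligned the reads to mm9 with Mosaik 1.0.1384, kept unique alignments, and called peaks with MACS on each library. The deposited read files are raw counts, with 1 line of 34 bases per read, and the deposited peak files give a score per peak that is not scaled between lists. Whether duplicates were removed is not given in the sources used here. In this work reads were extended to 150 bp and counted by their midpoint, as fold over the library mean on non-N bases. Starts came from GENCODE M1 (Ensembl 65, mm9). The plan of 1 start per gene was applied to each first exon, because that annotation merges alpha and gamma genes. Poisson and binomial intervals were exact (95%), and the interval of a median used order statistics. Functions were tested on simulated data. The scripts ran under Python 3.11.15 with scipy 1.17.1, pandas 2.3.3, matplotlib 3.10.9 and numpy 2.4.6. All members were counted, and the rule for named genes took the C-type members, members with an H3K4me3 peak, the members with the highest fold (ties at 0 reads are given as counts), context genes past the call, genes inside the cluster and the highest bins. Neighbours of the cluster past the call are given as counts. Members above the mean and the division of the beta array were added after the values were seen. The members and lists were chosen with earlier results of these data known. With 1 library per group, no test was run and p-values are not given. Alternatives covered window, extension, duplicates, background, uniqueness, scaling and peak lists.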

Additional observations from a re-analysis of the deposited data

How the results depend on the processing

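No paired analysis was possible because each mark had 1 library per cell type, and leaving out a replicate was not possible for the same reason. No value changed sides of 1 among the called ratios, and counting each start by the transcript with the most H3K4me3 reads or leaving out overlapping windows changed no start. Depth limits single starts, which held few reads in most libraries, so medians move in steps of 1 read. The cause of the changes below was not tested beyond the settings' own construction.

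With 300 bp windows, the median fold over the 40 starts was 0 for H3K4me3 and for H3K4me1 in myotubes and 1.22 for H3K27me3 in myoblasts. Starts above the mean then numbered 5 for H3K4me3 in myotubes, 1 for H3K4me1 in each cell type, 1 for H3K27ac in myotubes and 1 for H3K27me3 in myotubes. With 2000 bp windows they were 8 for H3K4me2 and 1 for H3K27me3 in myoblasts. With 1 read per position the medians were 0.926 (H3K4me3, myoblasts), 0.546 (H3K27ac, myotubes) and 0.512 (H3K27me3, myotubes).

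Against the mean of the 200 kb on either side, the medians in myotubes were 0.354 for H3K4me3, 0.504 for H3K4me2 and 0.709 for H3K27me3. Starts above that mean were 2 for H3K4me3, 1 for H3K27ac and 1 for H3K36me3 in myotubes, and 2 for H3K4me1 and 1 for H3K27me3 in myoblasts. Scaled by unique positions, 2 starts passed for H3K4me1 in myoblasts and 1 bin for H3K27me3 in each cell type. Centred on the 58 reading frames (chosen after seeing the data), 7 starts passed for H3K4me2 in myoblasts, 1 for H3K27ac in myotubes and 1 for H3K27me3 in myoblasts. Scaled outside H3K4me2 peaks, the H3K4me2 ratio was 0.592 over all starts, 1.43 over beta starts and 0.318 over C-type starts.

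Against the mean of chromosome 18, the cluster was 0.815-fold and 0.966-fold in myoblasts and myotubes for H3K4me3, 0.851 and 0.76 for H3K4me2, 0.595 and 0.491 for H3K4me1, 0.696 and 0.579 for H3K27ac, 0.621 and 0.637 for H3K27me3, and 0.668 and 0.723 for H3K36me3, and 4 H3K27me3 bins passed in myoblasts. With the myoblast lists exchanged, 1 start and 11 peaks of the cluster were in the H3K27ac list and 0 starts and 0 peaks in the H3K27me3 list. With a peak score of at least 100, the cluster held 3 H3K4me3 peaks in myotubes, 6 H3K4me2 peaks in each cell type (2 starts in myotubes), 1 H3K4me1 peak in myotubes (and 1 start in myoblasts), and 7 and 6 H3K36me3 peaks, with 1 start each.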

Other observations

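The cluster holds first exons that the annotation lacks. A search for long open reading frames on the plus strand, added after the data were seen, found 58 frames, and 18 of them had no annotated protein-coding start: 4 alpha, 1 beta (Pcdhb20), 7 gamma A and 6 gamma B. Windows were centred on their start codons. Their H3K4me3 summed to 0.922-fold (0.547 to 1.46) in myoblasts and 1.42-fold (0.979 to 2) in myotubes, and their H3K27ac to 0.382-fold (0.124 to 0.892) and 0.541-fold (0.321 to 0.856). The highest was Pcdhgb1, which had 9 H3K4me3 reads in myotubes, 6.98-fold, and a deposited H3K4me3 peak there. Pcdhga1, the first gamma exon, was above the mean in myotubes for H3K4me3, H3K4me2 (8 reads, 4.3-fold) and H3K4me1 (7 reads, 2.85-fold). For H3K27me3 none of the 18 was above the mean in either cell type.

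Between the beta and gamma arrays, 3 H3K27ac bins in myoblasts and 5 in myotubes were over 3-fold with at least 5 reads. In the genome 2.52% and 4.78% of bins passed, so the share in these 140.5 kb was under that of the genome in both. The H3K27ac myoblast library was the shallower one. The myoblast bins lay 3.37 kb past the start codon of Pcdhb22 and at -23.1 kb and -18.1 kb from that of Pcdhga1, with 6, 5 and 6 reads. Of the myotube bins, 1 lay at -12.1 kb from the start codon of Pcdhga1, with 0 reads in myoblasts and 22 in myotubes (11.9-fold, 7.46 to 18). Another lay at -2.1 kb, with 1 and 13 reads (7.04-fold, 3.75 to 12, in myotubes). The bin at the start of Taf7, at -18.1 kb, had 6 and 25 reads (8.26-fold and 13.5-fold).

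In base composition the 40 windows had a median G and C content of 44.4% against 55% in other genes, with beta starts lowest at 41.6% and C-type starts at 57.4%. The observed over expected CpG ratio was 0.468 against 0.555. The letters CGCT, the core of the conserved sequence element of these promoters, were present on either strand in 40 of 40 windows, and in 88% of windows of the same length at other genes. A CTCF core motif with ambiguous letters, searched on both strands of the same windows, was found at Pcdha1, Pcdha4 and Pcdha12, 7.5% of members against 1.98% of other genes.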
